A study of Xenopus laevis with 8 samples.

Results

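Untreated Noggin caps were the common partner of every array in this series. They are explants of the animal cap, which would form ectoderm, cut at stage 9 from *Xenopus laevis* embryos that had received 0.2 ng of Noggin mRNA together with 1 ng of mRNA for hGR-XEBF3, and then kept for 4.5 hours without dexamethasone (DEX). hGR-XEBF3 joins the transcription factor EBF3 to the hormone-binding part of the human glucocorticoid receptor, so that the protein is meant to wait for DEX. These caps were given none. No array held untreated caps without hGR-XEBF3, so that activity of the protein without DEX was not tested. Their cRNA carried cyanine 5 (Cy5) on all 8 two-color Agilent arrays, which makes 8 of the 16 channels of the series. The members were chosen by that rule alone, dye and treatment, and no measured value entered it. The cyanine 3 (Cy3) channel held caps treated with 30 μM DEX for 4.5 hours. On 4 active EBF3 arrays these expressed hGR-XEBF3, and on 4 DEX control arrays they expressed hGR from 0.4 ng of mRNA, in both cases with 0.2 ng of Noggin mRNA. Each of 4 replicate experiments gave 1 array of each kind, so that the Cy5 channels of a replicate were taken as 1 sample, with n = 4 for percentiles. Caps are pools of explants from injected embryos, not a sorted cell type.

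Noggin is a secreted antagonist that holds bone morphogenetic proteins (BMPs) away from their receptors. Ectoderm that receives BMP signals becomes epidermis, whereas ectoderm shielded from them takes on a neural character, by default of an anterior kind. The first genes of that state encode Sox and Zic transcription factors. Neurons follow later, when proneural factors of the basic helix-loop-helix (bHLH) class and then the EBF proteins drive cells out of division. The question addressed here is what the caps contained when no DEX was given.

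Of the 21495 probes on the arrays, 10908 (50.7%) were well above background on 8 of 8 Cy5 channels and are called present. Another 5186 (24.1%) were above it on 0 of 8 and are called absent, and 5401 (25.1%) lay in between. "Well above background" is the call that the scanner software makes for each spot. An absent call therefore states that the probe did not pass that call on any array, not that it gave no signal or that the RNA was missing. By a weaker test of the same software (signal positive and significant), 552 probes were absent on all arrays in place of 5186. Below, "above background" refers to the stricter call. Among 7259 probes with a gene name, 76.4% were present and 8.8% were absent, whereas 37.7% of the 14236 probes known only by an accession were present. For each probe, the Cy5 signal was also ranked within its array, on a scale of 0 to 100, and the percentiles of a replicate's arrays were averaged. A percentile says how bright a probe was among the probes of its own array. It depends on the probe as well as on the RNA, so that percentiles of different genes are given as a description and are not tested against each other. Present probes had mean percentiles between 40.5 and 99.98, with a median of 73.7. Probes in between spanned 6.61 to 74.8 and absent probes 2.18 to 35.3, and percentiles of absent probes have no order.

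The untreated caps were measured nearly alike on the arrays of one replicate. Log2 Cy5 signals of the 10908 present probes, which are not independent replicates, correlated at r = 0.994 to 0.997 within a replicate, at 0.959 to 0.984 between replicates on the same array design, and at 0.848 to 0.880 between designs. Replicates 1 and 2 were run on arrays with 22575 spots and replicates 3 and 4 on arrays with 44407 spots that carry the same probes, so that array design and pair of experiments cannot be told apart. Of 1255 probes above background on exactly 4 of the 8 arrays, 683 were above it on the arrays of replicates 3 and 4 only and 345 on those of replicates 1 and 2 only, whereas 4 were so on the active EBF3 arrays only and 0 on the DEX control arrays only. Between 58.6% and 62.9% of spots were above background in Cy5 on each array, and 0 to 15 probes per array were saturated. By probe, that share was 58.6% to 62.9% on the arrays of replicates 1 and 2. On those of replicates 3 and 4 it was 62.0% to 65.1%. These arrays each held 42990 spots for 21495 probes, and a share of 0.5 of a probe's spots sufficed for its call. How far this rule fed the split of 683 against 345 was not tested. With every spot required, 5954 probes were absent in place of 5186, and 10601 were present in place of 10908.

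Of the 20 named probes with the highest mean percentiles, 15 were saturated on 1 to 4 of the 8 arrays, so that these have no order among themselves. They included *eef1a-o1*, the oocyte form of translation elongation factor 1 alpha, at 99.98 ± 0.02 (SD, n = 4), which was saturated on 4 arrays. Others of the 20 were *eef1a-s*, the somatic form of the same factor, probes annotated as ubiquitin C and as heat shock cognate protein 70, the splicing factor *sfrs2*, the cold-inducible RNA-binding protein *xcirp2*, the histone *h3f3b* and the chromatin protein *hmgb3*. Probes for protein arginine methyltransferase 1, protein phosphatase 1 alpha (*ppp1ca*) and the kinase C substrate *marcks* also ranked there. The type I cytokeratin XK70 (*krt70*), saturated on 2 arrays, had 99.97, 99.96, 99.96 and 99.92 in replicates 1 to 4. *sox11*, a Sox factor of neural progenitors that was saturated on 0 arrays, had 99.91, 99.83, 99.94 and 99.96. The lowest percentile of any of the 20 probes in a replicate was 99.83, so that each stayed within the top percentile in every replicate.

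Marker genes in 20 lists, 336 genes on 424 probes in all, were then read against this scale. A gene counts as present if any of its probes was, and as absent only if all were. In these lists 203 genes were present, 92 lay in between and 41 were absent. The 203 present genes had a median percentile of 75.6 ± 0.67 (SD of the 4 replicate medians). In bulk samples such as these, fewer cells of a type and less RNA per cell cannot be told apart. Counts are to be read against the background of 50.7% of all probes and 76.4% of named probes present. Those shares are per probe, whereas 78 of the 336 genes had more than 1 probe, for which the rule favors a present call. For 32 of these 78 genes the probes fell in different classes.

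**Figure D1:**
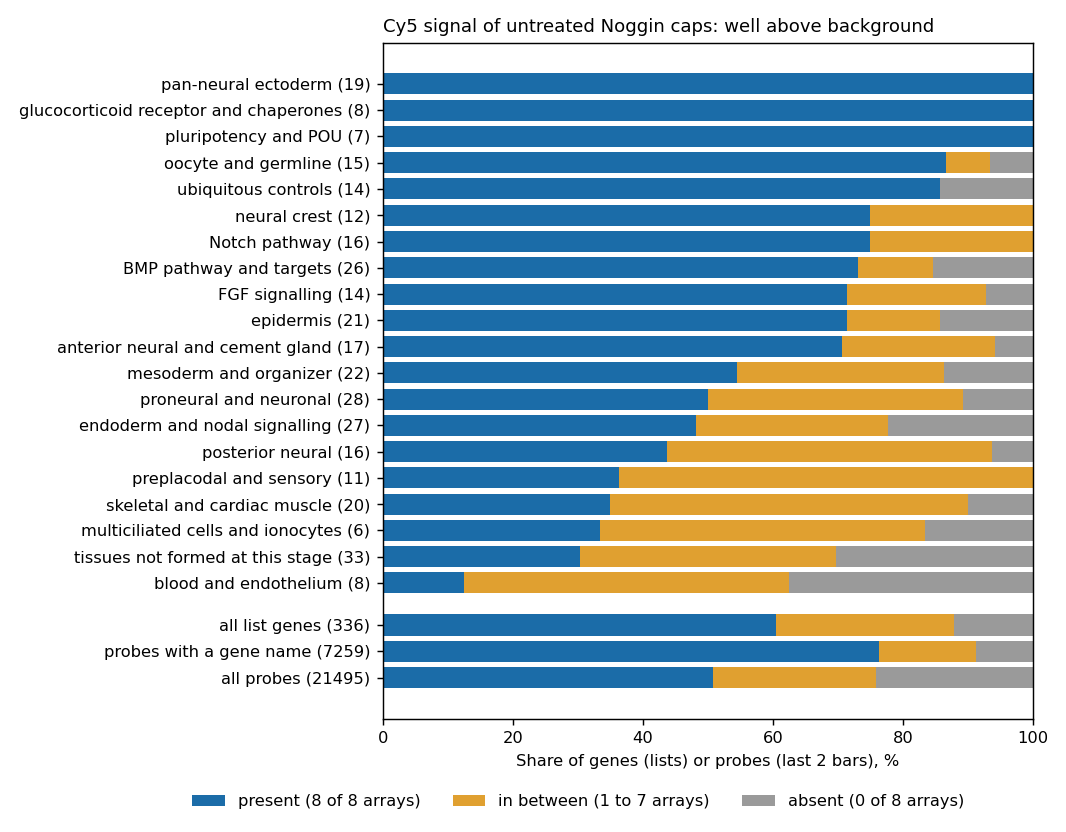
Share of genes (in each of 20 marker lists, and in all lists together) or of probes (last 2 bars) that were well above background in the Cy5 channel of untreated Noggin caps on 8 of 8 arrays (blue), on 1 to 7 (orange) or on 0 (grey), with the number of genes or probes in brackets. The pan-neural, chaperone and pluripotency bars are blue throughout, and the blood and endothelium bar has the smallest blue part, 12.5%.

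Genes of the neural plate as a whole were present without exception. All 19 pan-neural genes were present, with a median percentile of 89.3, against a median of 57.9 over all list genes. *sox2* and *sox3* encode SoxB1 factors that mark neural progenitors. *sox3* had percentiles of 99.8, 99.9, 99.8 and 99.8 in replicates 1 to 4, and *sox2* had 99.7, 99.3, 99.4 and 99.1. *zic1* (*opl*), a zinc-finger factor that acts early in neural induction, had 99.9, 99.8, 99.9 and 99.9. *zic2*, from the same family, averaged 98.2 ± 1.00, and *foxd4l1* (*FoxD5a*), a forkhead factor that keeps neural ectoderm immature, averaged 97.5 ± 0.72 (SD, n = 4 each). For these genes the 4 experiments differed by less than 3 percentile points. Present genes at the low end of the list were *sox15* (*SoxD*) at 56.3 ± 3.59, the RNA-binding protein *lin28a* at 51.4 ± 1.48 and the progenitor intermediate filament *nes* at 48.9 ± 1.89. *nes* had 51.2, 46.9, 49.6 and 47.9, close to the lowest values at which any probe was present. The genes *gmnn*, *ncam1* and *foxd4l1* of this list had a further probe that was above background on only 4 of 8 arrays.

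Genes of the forebrain, eye and cement gland were present in 12 of 17 cases. That share of 70.6% lay between the 50.7% of all probes and the 76.4% of named probes. The list had a median percentile of 63.2. *six3*, a homeodomain factor of the eye and forebrain field, had 99.5, 99.8, 99.7 and 99.8, and *otx1*, a head homeodomain factor, had 99.6, 99.4, 99.8 and 99.8. *hesx1* (*anf2*), a homeodomain repressor of the anterior plate, averaged 98.3 ± 0.33, and the secreted Wnt inhibitor *sfrp2* averaged 97.5 ± 0.78. All 4 lay in the top 4 percentiles in every replicate. The eye field genes *rax* and *pax6* lay lower and differed more between experiments, although a percentile near 100 leaves little room for spread. *rax* had 83.4, 95.3, 86.5 and 94.7, and *pax6* had 82.9, 94.4, 79.3 and 83.7. In both genes replicate 2 had the highest value. Toward the low end stood *arx* at 61.3 ± 9.30 and the Wnt inhibitor *dkk1* at 53.4 ± 1.22. Among the dimmest list genes still called present was *lin28b* at 43.8. Just outside the class, *nkx2-1* and the crest gene *sox8* were above background on 7 of 8 arrays, with mean percentiles of 48.1 and 47.8. *six6*, a further eye field factor, was absent, and *nkx2-1*, *emx1*, *frzb* and *pitx1* lay in between. Genes in between, and *id3*, *ventx2* and *cdh2* among the present ones, fall outside the rule by which genes were chosen for naming, and those named here and below were picked after their values had been seen, unless the study had selected them.

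**Figure D2:**
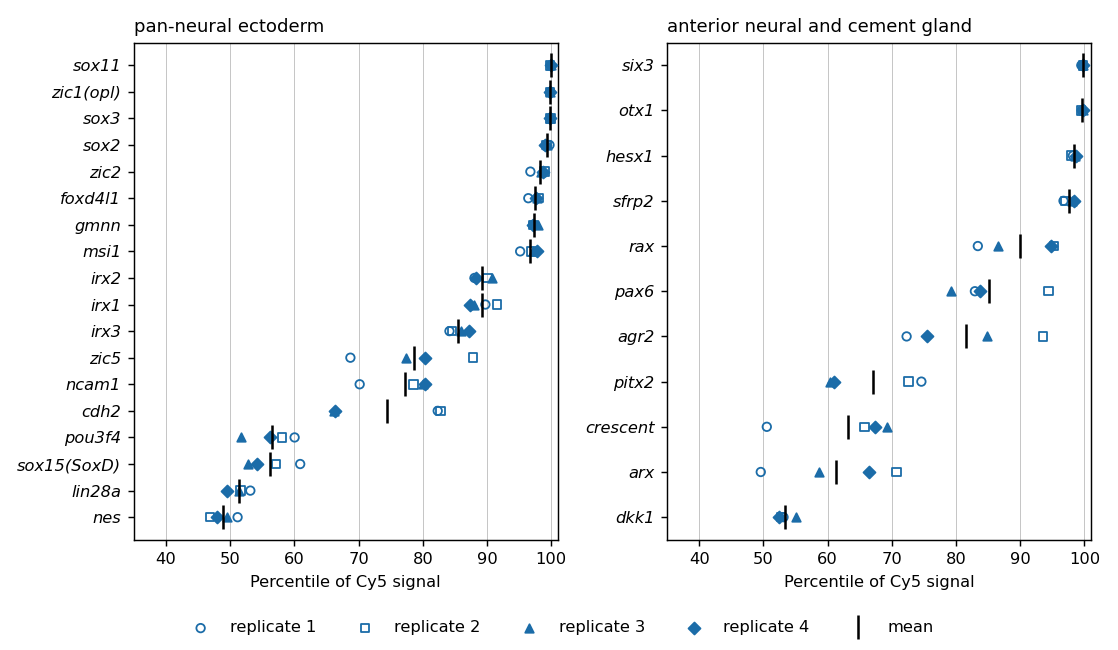
Percentile of the Cy5 signal within its array in each of the 4 replicates (open symbols, replicates 1 and 2; filled symbols, replicates 3 and 4) with the mean (bar), for present genes of the pan-neural list (left) and of the anterior neural and cement gland list (right). *sox11*, *zic1*, *sox3*, *six3* and *otx1* sit at the right edge with symbols on top of each other, whereas *cdh2*, *agr2* and *arx* spread over more than 15 points.

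Of 16 posterior neural genes, 7 were present (43.8%, against 50.7% of all probes and 76.4% of named probes). Another 8 lay in between and 1 was absent, and the list had a median percentile of 47.0. The difference from the anterior list was not tested. The paired-box gene *pax2* of the midbrain boundary averaged 77.8 ± 3.90, the boundary ligand *fgf8* 77.0 ± 3.08, and the Hox cofactors *meis3* and *meis1* 75.6 ± 1.27 and 72.1 ± 2.94. *hoxd1* averaged 70.1 ± 7.35, the caudal gene *cdx1* 63.9 ± 9.08 and the hindbrain factor *mafb* 61.7 ± 7.79 (SD, n = 4 each). *hoxd1* had 77.3, 75.4, 62.5 and 65.1 and *cdx1* had 68.7, 74.3, 57.9 and 54.9, higher in replicates 1 and 2 than in 3 and 4 without overlap. A second *cdx1* probe was above background on 5 of 8 arrays. *en2*, which marks the midbrain-hindbrain boundary, was absent on both of its probes. *hoxd10* was above background on 7 arrays, *egr2* (*Krox20*) on 6, *wnt1* and *hoxa7* on 4, *hoxc6* on 3 and *wnt3a* on 1. Across the whole array 3 of 17 Hox probes were present and 7 were absent.

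Genes of neuronal commitment were mixed, with 14 of 28 present, 11 in between and 3 absent. The neuronal intermediate filament *ina* averaged 86.5 ± 3.05, although its other probes were above background on 4 and on 0 of 8 arrays. *myt1*, a zinc-finger factor of primary neurogenesis, averaged 71.4 ± 5.52 and *elavl3* (*elrC*), a neuronal RNA-binding protein, 65.4 ± 2.85. The Notch ligand *dll1*, which proneural factors switch on, averaged 55.1 ± 7.91. The lowest present genes were the homeodomain factor *tlx1* at 52.6 ± 8.51, the bHLH factor *neurod1* at 52.3 ± 1.57 and the microtubule regulator *stmn2* at 50.4 ± 7.004 (SD, n = 4 each). *neurod1* had 50, 53.24, 52.89 and 53.24 on one probe, and its other probe was above background on 4 arrays. The proneural gene *neurog2* was above background on 6 of 8 arrays. *elavl4*, *neurod4* and *ebf3* were absent.

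The genes that the study picked from these arrays as EBF3 targets were in part above background in caps without DEX. Whether hGR-XEBF3 without DEX contributed to that was not tested. That list was chosen on the same samples and so bears no independent weight. Of its 14 genes, 4 were present in untreated caps, 9 lay in between and 1, *en2*, was absent. The potassium channel *kcnk5* had percentiles of 75.6, 75.3, 79.1 and 80.3, and the activin subunit *inhbb* had 75.6, 76.5, 69.1 and 71.4. The intermediate filament peripherin (*prph*) had 64.4, 75.5, 73.0 and 76.1, lowest in replicate 1. *neurod1* was the other present gene. *pcdh8*, *nr2f2*, *hoxd10* and *runx1* (*aml1*) were above background on 7 arrays, *emx1* on 6, *nefm* and *greb1* on 5, *nhlh1* (*nscl-1*) on 4 and *wnt3a* on 1. Of the *ebf* genes, *ebf2* had 57.5, 56.1, 49.0 and 48.6 on its brighter probe and was above background on 5 arrays on the other, whereas the *ebf3* probe was above it on 0 of 8. The *ebf3* probe thus did not show the injected hGR-XEBF3 mRNA well above background. Nor did the *nog* probe, also at 0 of 8, show the injected Noggin mRNA at that level. Whether these probes lie within the injected mRNAs is not given in the sources used here, so that neither checks the injections.

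Of the epidermal genes, 15 of 21 were present (71.4%, against 50.7% of all probes and 76.4% of named probes). The brightest were cytokeratins. *krt70* averaged 99.95 ± 0.02, *krt8* 99.7 ± 0.09, *krt18* 98.0 ± 0.55 and the epidermal cytokeratin listed under MGC68905 92.1 ± 4.29 (SD, n = 4 each). The bHLH gene *esr6e* of the outer ectodermal layer averaged 89.3 ± 2.83, and the homeodomain gene *dlx5*, which borders the neural plate, had 85.6, 87.9, 93.1 and 85.2. Lower on the scale were *klf5* at 58.8 ± 7.35, *krt12.6* at 58.2 ± 6.56 and *itln1* (*XEEL*), a lectin secreted by embryonic epidermis, at 50.02 ± 4.10. *tp63*, which specifies stratified epithelium, was above background on 4 of 8 arrays on one probe and on 0 on the other. The keratins *krt16*, *krt57* and *krt62* were absent. Of 6 genes of multiciliated cells and ionocytes, the ciliary master regulator *foxj1* (71.7 ± 1.51) and *tekt4* (62.8 ± 6.52) were present and *myb* was absent.

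Of 26 genes of the BMP pathway, its antagonists and its targets, 19 were present (73.1%, near the 76.4% of named probes). The ligand *bmp7* had 97.9, 97.7, 97.8 and 97.9, the intracellular transducer *smad1* averaged 97.0 ± 0.51, and the receptors *bmpr1a* and *acvr1* (*ALK2*) averaged 96.0 ± 1.099 and 92.3 ± 1.88 (SD, n = 4 each). The extracellular regulators *twsg1* and *chrd* followed at 86.9 ± 3.96 and 85.2 ± 2.43. *chrd*, the organizer's own BMP antagonist, had 84.7, 87.5, 82.0 and 86.5. The lowest present genes were the inhibitor of differentiation *id4* at 63.0 ± 2.66, the receptor *bmpr2* at 55.8 ± 6.21 and the ligand *gdf6* at 47.8 ± 3.89. Absent members were *fst* (follistatin, an activin and BMP antagonist), *id2*, *msx2* and *nog*. Of these, *id2* and *msx2* are targets of BMP signals. The targets *ventx2* (70.5 ± 2.81) and *id3* (80.9 ± 2.89) were present, and *ventx1* was above background on 5 arrays, so the targets in the list did not share one class.

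Neural crest genes were present in 9 of 12 cases (75.0%, near the 76.4% of named probes), and none was absent. *myc* averaged 90.9 ± 2.70, *sox9* 88.1 ± 2.26 and *kctd15*, which limits crest formation, 84.9 ± 1.73. The repressor *snai1* averaged 82.9 ± 3.70, *ets1* 80.3 ± 4.55 and *lmo4* 78.9 ± 3.52 (SD, n = 4 each). *pax7* at 65.7 ± 5.89, *foxd3* at 65.3 ± 5.63 and *sox10* at 54.8 ± 7.62 were the lowest. *sox10* had 64.8, 56.6, 48.6 and 49.2, higher in replicates 1 and 2. *snai2*, the crest marker of the frog neurula, was above background on 6 arrays. Of 11 preplacodal and sensory genes, 4 were present (36.4%), among them *sall1* at 92.1 ± 0.93, *foxi4* at 70.2 ± 2.68 and *eya1* at 54.8 ± 9.13. The other 7 lay in between, the lens and ear factors *pax8* and *foxe3* among them on 2 arrays each.

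Genes of early embryonic potency were present in all 7 cases, with a median percentile of 91.7. *pou5f3.1* (*oct91*), a frog counterpart of mammalian Oct4, had 98.7, 98.8, 99.4 and 99.3, and *pou5f3.3* had 93.80, 91.36, 95.39 and 95.01. *pou2f1* averaged 96.2 ± 0.58 and *sall4*, a zinc-finger partner of Oct factors in mammals, 91.7 ± 1.13 (SD, n = 4 each). *klf2* at 66.4 ± 8.40 and *lin28b* at 43.8 ± 5.50 were the lowest. RNAs of the oocyte and germline were present in 13 of 15 cases (86.7%, against 76.4% of named probes). The RNA-binding protein *ybx2* (*FRGY2*) averaged 98.9 ± 0.42, the meiotic kinase *mos* 97.5 ± 0.39, *wee2* 96.1 ± 1.68, *zar1* 94.7 ± 1.43, the germline helicase *ddx4* 94.5 ± 0.35 and the egg coat protein *zpc* 91.9 ± 1.48. *gtf3a* (58.6 ± 4.56), *pgat* (52.4 ± 4.69) and *nanos1* (49.6 ± 3.198) were the lowest present and *germes* was absent. The arrays do not separate RNA stored in the egg from RNA made in the caps.

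In the Notch pathway 12 of 16 genes were present and none was absent, and in the FGF pathway 10 of 14 were present. Both shares (75.0% and 71.4%) lay near that of all named probes. The effector *hes4* averaged 98.5 ± 0.84, the receptor *notch1* 92.7 ± 1.56, the feedback inhibitor *nrarp* 91.9 ± 2.08, the glycosyltransferase *lfng* 90.4 ± 1.99, the ligand *jag1* 89.0 ± 0.42 and the coactivator *maml1* 86.8 ± 1.38 (SD, n = 4 each). *hes1* (67.1 ± 2.50), *hey1* (57.1 ± 9.68) and *dll1* were the lowest. *hey1* had 49.2, 48.3, 65.7 and 65.3, lower in replicates 1 and 2. In the FGF pathway, the Ets factor *etv4* (*XER81*), a target of FGF signals, averaged 95.2 ± 1.12, the receptor *fgfr4* 91.7 ± 2.29 and the feedback phosphatase *dusp6* 80.7 ± 3.70. The receptor *fgfr1* averaged 80.7 ± 7.13 and the ligand *fgf2* 79.2 ± 1.34, and *fgfr3* was absent. All 8 genes of the glucocorticoid receptor list were present. The receptor itself, *nr3c1*, had 71.4, 66.3, 77.9 and 78.0, and the mineralocorticoid receptor *nr3c2*, which also binds glucocorticoids, averaged 61.4 ± 2.05. The chaperones of that receptor averaged 99.1 ± 0.17 (*hsp90*) and 99.0 ± 1.02 (*ptges3*), and the hormone-responsive genes *tsc22d3* and *klf9* averaged 76.9 ± 4.15 and 61.3 ± 5.65.

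**Figure D3:**
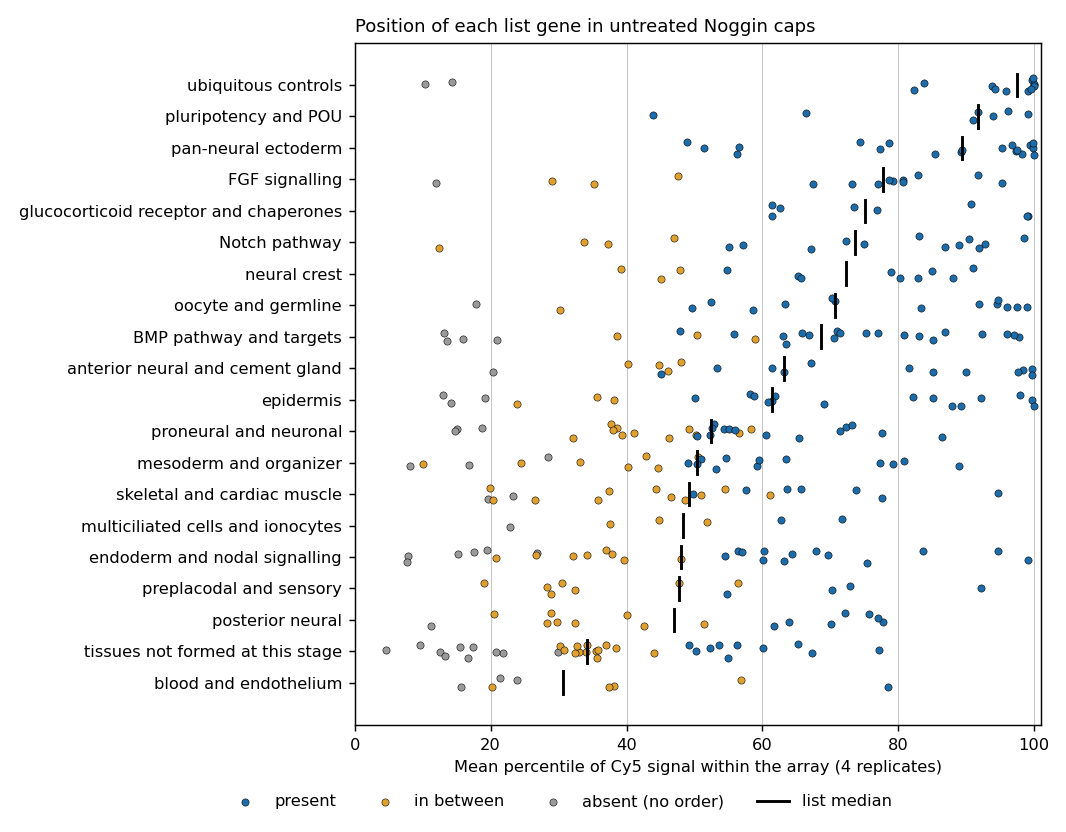
Mean percentile of the Cy5 signal (4 replicates) for each gene of the 20 lists, colored by class (blue present, orange in between, grey absent, whose positions have no order), with the list median as a black bar. Points are spread vertically within a list only for legibility. The medians run from 97.5 for the ubiquitous controls to 30.6 for blood and endothelium, and the pan-neural genes reach from 48.9 to 99.9 without a grey or orange point.

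Markers of other germ layers were seen in part. Of 22 genes of mesoderm and the organizer, 12 were present (54.5%, against 50.7% of all probes and 76.4% of named probes), 7 lay in between and 3 were absent. *foxb1*, also expressed in the neural plate, averaged 88.9 ± 1.74, the ligand *wnt11* 80.9 ± 1.89, the notochord factor *not* 79.2 ± 2.17 and the maternal T-box factor *vegt* 77.3 ± 1.95 (SD, n = 4 each). *msgn1* averaged 63.5 ± 4.95 and *foxf1* 59.5 ± 2.63, and *tbx6* (50.9 ± 3.43), *foxc2* (50.3 ± 2.44) and *tbx5* (49.1 ± 4.07) were the lowest present. *fgf3*, *mesp* (*thylacine*) and *wt1* were absent. Organizer and axial mesoderm genes were divided. Beside *not*, the forkhead gene *foxa4* was present at 59.2 ± 7.07 (SD, n = 4), as was *chrd* of the BMP list, whereas *gsc* was above background on 5 of 8 arrays and *tbxt* (*brachyury*) on 3 on one probe and on 0 on the other. Of 27 endoderm and nodal genes, 13 were present (48.1%). The nodal coreceptor *tdgf1* (*FRL1*) had 99.4, 98.2, 99.5 and 99.2, and the activin receptors *acvr2b*, *acvr2a* and *acvr1b* averaged 94.7 ± 1.43, 83.7 ± 2.15 and 75.3 ± 3.40. The endoderm factors *foxa1* (69.6 ± 5.98), *gata5* (67.9 ± 3.82), *hhex* (56.9 ± 6.44), *mix1* (56.4 ± 14.35) and *gata6* (54.6 ± 5.87) were present as well. *mix1* had 67.7, 69.4, 40.8 and 47.6, and its other probe was above background on 5 arrays. Absent genes included the ligands *nodal* (*Xnr4*), *nodal3*, *nodal5* and *nodal6* and the factor *sia1*.

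Muscle genes were present in 7 of 20 cases, with *tpm1* at 94.7 ± 1.92, the creatine kinase *ckm* at 77.6 ± 3.22, a troponin I probe (*tnni*) at 73.8 ± 1.30 and *myog* at 65.7 ± 12.36 (SD, n = 4 each). *tpm1* also serves cells outside muscle. *myog*, a myogenic bHLH factor, had 76.6, 76.3, 55.3 and 54.7 on one probe and was above background on 0 of 8 arrays on the other. In this list 4 of the 5 genes with more than 1 probe had probes in different classes. *myl4* (63.6 ± 4.79), *tnnc1* (57.6 ± 4.89) and *mef2a* (49.8 ± 4.68) completed the present genes, *ldb3* and *ttn* were absent, and *myod1* was above background on 7 arrays. Across the array 4 of 20 sarcomeric probes were present. In the blood and endothelium list 1 of 8 genes was present. That was *hba*, an alpha globin, with 77.4, 80.3, 79.2 and 76.7, although its other probe was absent. *fli1*, *gata1* and *mpo* were absent and *lmo2* was above background on 7 arrays.

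Genes of tissues that caps of this age have not formed were called present in part. Of 33 such genes 10 were present (30.3%), 13 lay in between and 10 were absent, with a median percentile of 34.2. All 6 genes of this list with more than 1 probe had probes in different classes. Thus *prl* and *cryba1* were present on only 1 of their 2 probes. Of 6 vitellogenin probes 1 was present, 3 lay in between and 2 were absent. The gamma crystallin *gcry4* had 78.8, 84.0, 72.6 and 73.2, the peptide hormone *sst* averaged 67.3 ± 4.41, the pituitary hormone *prl* 65.3 ± 7.80 and the lens crystallins *cryaa* and *crygb* 60.1 ± 12.27 and 56.3 ± 14.47 (SD, n = 4 each). *pde6g* of the retina averaged 55.0 ± 8.70, and *vtg* (52.3 ± 5.21), *cryba1* (50.3 ± 4.95) and the liver protein *fga* (49.3 ± 9.22) were the lowest present. Several of these were higher in replicates 1 and 2. *crygb* had 69.1 and 68.6 in replicates 1 and 2 against 42.5 and 45.2 in replicates 3 and 4, and *cryaa* had 71.9 and 69.5 against 50.9 and 48.2. Of the 10 present genes of this list, 6 were more than 10 points higher on replicates 1 and 2 than on 3 and 4 and 0 were more than 10 points lower, compared with 20 and 12 of the 203 present genes of all lists. Array design and pair of experiments cannot be told apart here either. *alb* (albumin), *caerulein*, *cryba2*, *crybb2*, *gcg* (glucagon), *gh* (growth hormone), *gnat1* and *mbp* (myelin basic protein) were among the absent. Present calls were thus given to genes of tissues that had not formed, up to a mean percentile of 77.1 (*gcry4*). In other lists, a present call at or below that level therefore need not mean that the gene was expressed. Whether RNA or probe accounts for these calls was not tested.

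Ubiquitous genes were present in 12 of 14 cases, and the 2 that were not show how far an absent call can be read. *hspa8*, *ubc*, *ncl*, *odc1* and *pcna* averaged between 99.5 and 99.97, whereas *rpl8* and *rpl13a*, which encode ribosomal proteins that every cell uses, were absent. Over all 45 probes for cytoplasmic ribosomal proteins, 27 were present and 9 were absent. All 9 absent ones were designed on expressed sequence tags, of which 40 of the 45 were. Of the 11 designed on tags from the NICHD brain, eye and tadpole libraries 0 were present and 8 were absent, compared with 27 present and 1 absent among the other 34. Over all named tags, from which ribosomal proteins were not removed, the same source stood out. Of 230 named tags of those libraries 13.9% were present, and of 354 other named tags 61.6%. Over the whole array, 75.1% of 8337 probes from cDNA or gene records were present, 48.6% of 6962 from tags read at the 5′ end and 20.3% of 6174 from tags read at the 3′ end. Of the 41 absent list genes, 35 had a probe from a cDNA or gene record and 6 had tags only. On the scale of families, 8 of 8 minichromosome maintenance probes, 11 of 12 tubulins, 21 of 24 translation factors, 27 of 31 chaperones and 12 of 14 histones were present. At the other end were 0 of 5 opsins, 0 of 6 olfactory and taste receptors, 1 of 7 cytochromes P450 and 2 of 12 immune receptor and MHC probes, whereas 4 of 7 crystallins, proteins of a lens that had not formed, were present. Sox and Fox genes were present in 10 of 15 and 18 of 26 cases, none absent, and Wnt ligands in 3 of 10.

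**Figure D4:**
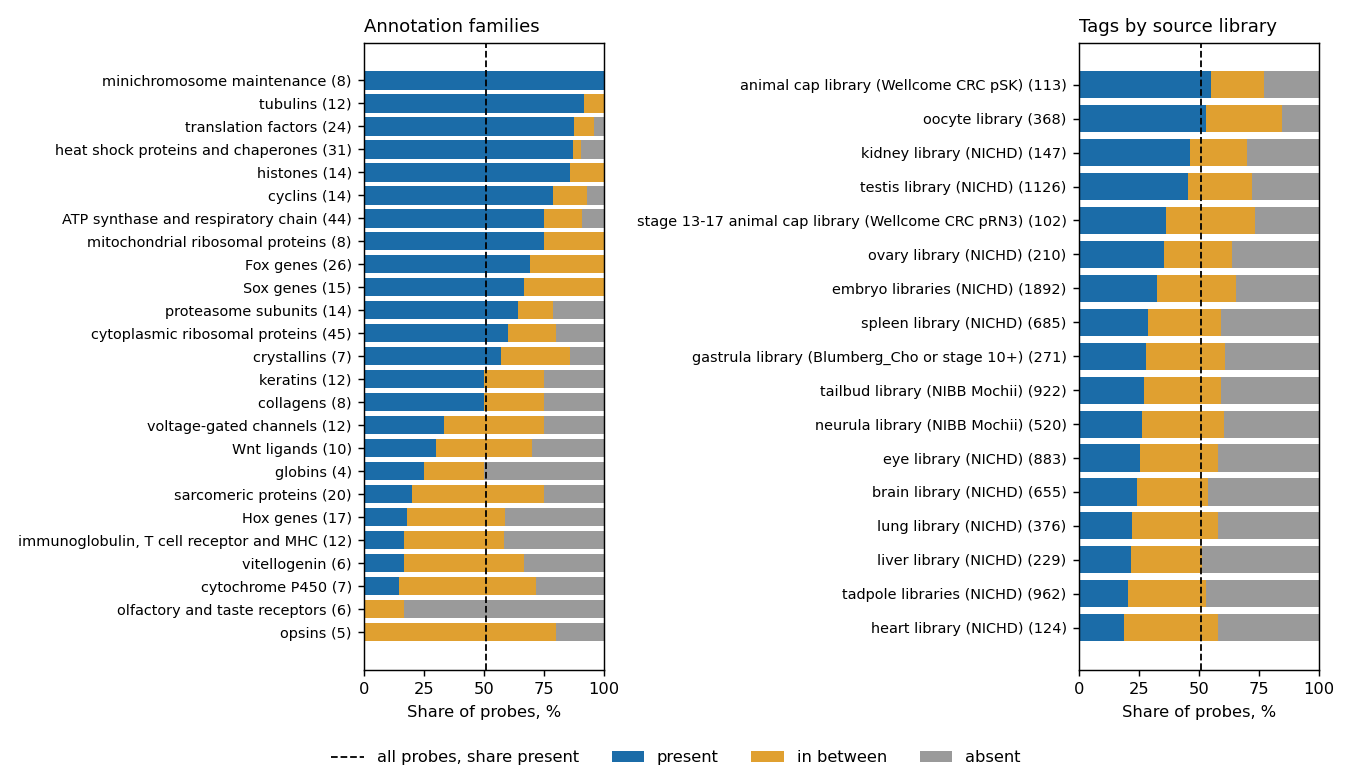
Share of probes present (blue), in between (orange) and absent (grey) in the Cy5 channel of untreated caps, for annotation families (left) and for expressed sequence tags by the library they came from (right), with the number of probes in brackets. The dashed line marks the 50.7% of all probes that were present. Minichromosome maintenance, tubulin, translation factor and histone probes lie to the right of it, as do crystallins (57.1%), opsins and olfactory receptors are at 0, and among tag libraries only those from animal caps (Wellcome CRC pSK) and oocytes exceed the line.

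*X. laevis* carries many genes as a pair of near-identical copies, the L and S homeologs, and a probe for one may also bind the RNA of the other. Of 83 pairs in which both copies had a probe named as such, 47 were present for both, 3 absent for both and 5 present for one and absent for the other. Their percentiles differed by a median of 14.9 points. Both copies fell in the same class in 56 of the 83 pairs (67.5%). Whether the copies or the probes account for the differences was not tested, so that calls for a gene of such a pair are uncertain.

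Experiments on the same array design could be compared directly. The 4 arrays of replicates 3 and 4 lay on 1 slide, whereas those of replicates 1 and 2 lay on 4 slides, and the arrays of replicate 1 were read with another software version than those of replicate 2. Between replicates 2 and 1 the percentile of the 10908 present probes differed by a median of 2.36 points, and by more than 10 points for 4.77% of them. Between replicates 4 and 3 the median was 1.396 points and 1.05% exceeded 10. Among list genes the largest gains of replicate 2 over replicate 1 were those of *agr2*, a cement gland gene (93.6 against 72.3), *arx* (70.7 against 49.6), *zic5* (87.8 against 68.7), *foxa4* (65.6 against 49.1) and the head Wnt inhibitor *crescent* (65.7 against 50.5). The largest losses were those of *foxa1* (60.7 against 71.3), *klf2* (55.2 against 65.7), *mafb* (50.9 against 61.1), *itln1* (46.0 against 55.7) and *sox10* (56.6 against 64.8). *agr2*, *arx* and *crescent* belong to the anterior list, whose present genes *rax* and *pax6* were also higher in replicate 2. In the other pair, *esr7* had 68.3 in replicate 4 and 82.4 in replicate 3, and *agr2* had 75.5 and 84.9. With 1 sample per experiment these differences have no test.

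Against the untreated caps, no probe of the DEX control arrays passed the threshold (a 2-fold change or more with Benjamini-Hochberg adjusted p below 0.05 in limma). With hGR and DEX, 0 of 21256 probes were higher (0% of those tested) and 0 lower (0%), although 36 and 85 reached 2-fold with an unadjusted p under 0.05. The methods' t-test also gave 0 and 0, but it was run here on Cy3 and Cy5 signals without pairing them by array. Signal differences between arrays thus add to its spread, so that this result adds no support. Leaving out replicate 1 gave 70 higher and 119 lower. These Cy3 and Cy5 channels also differed in construct, and the dyes were never swapped. Dye, hGR against hGR-XEBF3, and DEX thus cannot be told apart on the DEX control arrays. With hGR-XEBF3 and DEX, 647 of 21357 probes were higher (3.03%) and 607 lower (2.84%). For the difference between active EBF3 and DEX control arrays, in which the shared dye effect cancels, 513 of 21197 probes were higher (2.42%) and 306 lower (1.44%). Leaving out replicate 2, 3 or 4 gave 265, 311 and 344 higher and 98, 97 and 172 lower.

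Read by baseline class, the lower calls of that difference lay almost wholly among present probes. Of 10616 present probes 331 were higher and 302 lower, of 5397 in between 170 and 4, and of 5184 absent ones 12 and 0. A probe that is not well above background in Cy5 can hardly be seen to fall, so that the split of the lower calls follows from the classes. Among list probes 32 of 232 present were higher and 29 lower, 34 and 0 of 124 in between, and 1 and 0 of 61 absent. The median log2 difference was -0.004 over the 417 list probes tested and -0.08 over all probes. By list, 6 of 24 pan-neural probes were lower and 2 higher (median log2 difference -0.75), 6 of 21 anterior probes were lower and 3 higher (-0.83), and 9 of 18 posterior probes were higher and 0 lower (2.50). In the proneural and neuronal list 17 of 39 were higher and 1 lower (0.52), and in the epidermal list 0 of 23 were higher and 1 lower (-0.28). Higher calls were not confined to neural lists. They numbered 8 of 34 for endoderm (2 lower), 5 of 27 for muscle (1 lower) and 4 of 27 for mesoderm (1 lower). They numbered 2 of 10 for blood (0 lower), 5 of 17 for FGF (1 lower) and 5 of 19 for Notch (2 lower). Over all lists 67 of 417 probes were higher and 29 lower. The posterior, proneural and anterior lists hold genes that the study picked for their rise on these same arrays, *en2*, *neurod1* and *emx1* among them. Higher calls for such genes were fixed in part by that choice and bear no independent weight.

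**Figure D5:**
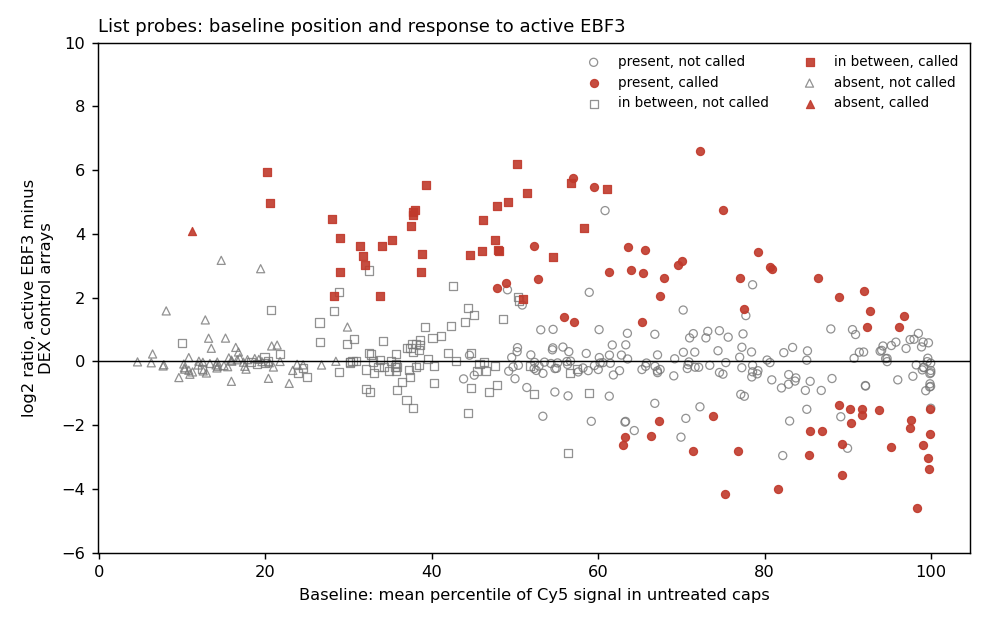
Log2 ratio of active EBF3 minus DEX control arrays (vertical axis; positive is higher with active EBF3) against the mean Cy5 percentile in untreated caps (horizontal axis) for the 417 list probes tested, by baseline class (circle present, square in between, triangle absent). Red symbols passed both thresholds in limma. The red symbols below 0 are all circles, and 1 red triangle, *en2*, stands at 4.09.

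Several of the brightest baseline genes were among those that fell with active EBF3. The same Cy5 signals set the baseline and enter each log2 ratio, and a large fall can be seen only in a bright probe. Brightness of the genes that fell is thus in part fixed by the measure. *hesx1* had log2 ratios of -3.58, -4.62, -5.75 and -6.02 on the active EBF3 arrays of replicates 1 to 4, against -0.41, 0.09, 0.23 and -1.51 on the DEX control arrays. The groups did not overlap, and the difference was -4.59 ± 0.59 (SE, limma, adjusted p = 0.00266). *six3* fell by 3.36 and *otx1* by 3.02 on the log2 scale, with adjusted p of 0.00438 and 0.000176 (limma). *zic1* had -1.85, -1.96, -2.86 and -3.04 with active EBF3 and -0.30, 0.03, -0.13 and -0.22 in the control, and fell by 2.27 (limma, adjusted p = 0.0026). In this fit, which had no replicate block, *sox2* and *sox3* were not called. Their differences were -0.92 ± 0.26 and -0.80 ± 0.22 (SE, limma, adjusted p = 0.114 and 0.0957). Both fell short of the 2-fold threshold, which leaves them uncalled at any p. Other probes of the pan-neural and anterior lists that fell included *sox11*, *foxd4l1*, *irx2*, *irx3*, *rax*, *agr2* and *sfrp2*, by 1.503 to 3.99 on the log2 scale. Those that rose were *msi1*, *nes*, *emx1*, *arx* and *nkx2-1*, by 1.43 to 3.47. Among these, *emx1* had been picked by the study on the same arrays. Of the 16 called probes named from these lists 8 kept the call whichever replicate was left out (*hesx1*, *otx1*, *zic1*, *rax*, *irx2*, *irx3*, *emx1* and *msi1*). The call was lost without replicate 1 for *arx*, and without replicate 2 for *agr2*, *arx*, *foxd4l1*, *nes*, *sfrp2* and *six3*. Without replicate 3 it was lost for *agr2*, *foxd4l1*, *nes*, *sfrp2* and *sox11*, and without replicate 4 for *arx*, *foxd4l1*, *nes*, *nkx2-1*, *sfrp2* and *sox11*. The highest adjusted p (limma) in these fits was 0.315 for *sfrp2*, 0.205 for *arx* and 0.0661 for *six3*.

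Few absent probes came up with DEX. Of the 5186 absent probes, 8 were well above background in Cy3 on 4 of 4 active EBF3 arrays and 0 on 4 of 4 DEX control arrays. On 0 of 4 arrays were 5023 with hGR-XEBF3 and DEX and 5167 with hGR and DEX. Conversely, of the 10908 present probes 9683 were above background on 4 of 4 active EBF3 arrays and 9695 on 4 of 4 DEX control arrays. The 1 list gene among the 8 was *en2*. Its probe listed as MabEn had log2 ratios of 2.02, 3.67, 6.72 and 6.05 on the active EBF3 arrays, against 0.20, 0.68, 0.77 and 0.44 on the DEX control arrays, without overlap. The probe was picked as absent in Cy5 and above background in Cy3 on 4 of 4 active EBF3 arrays. Its rise and the lack of overlap follow in part from that choice and are no further support. The mean log2 ratio to untreated caps was 4.62 (limma, adjusted p = 0.0249). A bound put the rise at 11.99-fold or more, without a test of its own. It takes the lowest signal above background as the level of the dim channel, on processed signals made comparable between arrays by Aquantile normalization. The other *en2* probe was above background on 0 of 4. The call for *en2* was lost without replicate 2, 3 or 4, with adjusted p of 0.0772, 0.0678 and 0.128 (limma). It was also lost with normexp background correction, under which the log2 ratio was 1.63 in place of 4.62 and thus below that bound (limma, adjusted p = 0.0995), and with the methods' t-test (adjusted p = 0.14 after Benjamini-Hochberg). *ebf3* was above background in Cy3 on 3 of 4 active EBF3 arrays and 0 of 4 DEX control arrays, with log2 ratios of 1.22, 2.25, 5.56 and 4.98 against -0.79, 0.78, 0.90 and 0.42. Its difference of 3.17 ± 0.94 was not called (SE, limma, adjusted p = 0.128). *nog* was above background on 1 of 4 active EBF3 arrays.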

How the data were processed

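RNA of untreated and DEX-treated caps was compared on 8 two-color arrays, with dyes and groups as the paper and the labels give them. In the scanner output that the authors deposited, processed signals are intensities after background correction and LOWESS normalization of the dyes by Agilent Feature Extraction, so that a Cy5 value depends in part on its Cy3 partner. Per the file headers, version 8.1.1.1 read the arrays of replicate 1 and 9.1.3.1 the others. Dim spots hold a surrogate value (18.1% to 28.8% of Cy5 spots). The deposited table of log10 ratios served as an alternative added after seeing the data.

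Control spots were dropped and replicate spots averaged. A probe was taken as well above background where a share of 0.5 or more of its spots had that call. Processed Cy5 signals were ranked within each array, and a replicate's arrays averaged. Log2 ratios of Cy3 to Cy5 were tested in R 4.3.3 with limma 3.58.1 (lmFit, eBayes, two-sided) over all probes, without spots marked as non-uniform, and called at 2-fold or more with adjusted p below 0.05. The p-values cover the spread between 4 experiments. For the difference, the main fit set 4 arrays against 4 as independent, without a replicate block, which served as an alternative. *inhbb* had such a spot on an active EBF3 array and was not tested there. In simulated arrays 127 of 150 probes changed 4-fold or more and 13 of 50 changed 2-fold were recovered in the difference of the groups, with 6 unchanged probes called among 21197 probes. The simulated noise was independent between arrays, and each probe's spread came from the 4 active EBF3 arrays. Deviations shared by same-numbered arrays were left out, so that these counts may not hold for the real arrays.

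Deviations of same-numbered arrays from their group means correlated at 0.366 to 0.591 (4 pairs, against -0.339 to 0.0483 for 12 others, across 21197 probes, which are not independent), so replicate numbers pair the arrays.

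Probes were matched to list genes by name, description or accession, by hand from names only. A gene's percentile is that of its brightest probe. Named per list were up to 6 present genes with the highest percentile, the 3 lowest, and absent ones (up to 8, alphabetically), with the 20 brightest named probes, *nog*, *ebf2*, *ebf3*, the 14 genes of the study, up to 5 same-design differences each way, and called genes, here of 2 lists. A few genes that this rule would name are not reported here. Members and lists were chosen with earlier results of these data known. Markers without a probe matched by name (among them *otx2*, *bmp4* and *msx1*) and probe sequences were not analysed here. Precision is limited by the few arrays and, where signals are dim, by the background.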

Additional observations from a re-analysis of the deposited data

Results flagged for a closer look

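The percentile of *neurod1* (52.3 ± 1.57, SD, n = 4) stood out because 1 replicate lay far from the others: replicate 1 had 50 and the other replicates 53.24, 52.89 and 53.24. It was the 1 flag among 152 genes tested in this way, fewer than the about 1 in 20 that chance alone gives, so the flag carries no weight.

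The response to DEX differed between active EBF3 and DEX control arrays by a test of the difference itself (limma, Benjamini-Hochberg adjustment), with 513 probes higher and 306 lower. In the pan-neural and anterior lists, for the probes named, the log2 difference was -1.503 for *sox11*, -2.27 for *zic1*, -2.09 for *foxd4l1*, -2.60 for *irx2* and -2.17 for *irx3*. It was -3.02 for *otx1*, -3.36 for *six3*, -2.92 for *rax*, -4.59 for *hesx1*, -3.99 for *agr2* and -1.84 for *sfrp2*. It was 1.43 for *msi1*, 2.45 for *nes*, 3.47 for *emx1*, 2.81 for *arx* and 3.46 for *nkx2-1*.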

How the results depend on the processing

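With the weaker test of the scanner software in place of "well above background" (signal positive and significant), 552 probes and 6 list genes were absent, and 5 absent list genes became present, so that an absent call depends on that choice. With replicates 1 and 2 alone 71 list genes were absent. Of the 203 present list genes 200 kept their class when every spot had to be above background. A call on 8 or on 0 of 8 arrays holds by construction when fewer arrays are used. The median percentile of present list genes was 52.2 when only present probes were ranked, and 75.5 to 76.3 when a replicate was left out. With a replicate block the difference of active EBF3 and DEX control arrays gave 549 higher and 363 lower, and it removed no call among the 16 probes named. Of those calls normexp removed *agr2*, *arx*, *nes* and *sfrp2*, the methods' t-test the same 4 and *foxd4l1*, and array design as a block *arx*. Background correction by normexp gave 324 and 156 there, and 329 and 287 for hGR-XEBF3 with DEX. The methods' t-test, on signals not paired by array, gave 193 and 81 for hGR-XEBF3 with DEX. For the difference it was run on log2 ratios and gave 170 lower. Only probes above background in a channel on every array gave 2 higher and 9 lower for hGR with DEX, and the authors' table gave 1 lower. Leaving out a replicate gave 0 to 70 higher and 0 to 119 lower for hGR with DEX, 322 to 734 and 153 to 752 for hGR-XEBF3 with DEX, and 265 to 501 and 97 to 292 for the difference. For hGR-XEBF3 with DEX, lower calls outnumbered higher ones with each array centered on its median (648 higher and 814 lower), with probes above background only (612 and 674) and without replicate 1 (734 and 752). No called list probe changed direction. The cause of these changes was not tested.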
